A study of Mus musculus with 36 samples.

Results

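Liver transcripts of the growth hormone and IGF axis were followed in male C57BL/6 mice fed a diet with or without tomato. The axis was taken as 10 named genes of the 53715 identifiers in the count table: the growth hormone receptor Ghr, its targets Socs2, Cish, Igf1 and Igfals, the binding proteins Igfbp1 and Igfbp2, the insulin receptor Insr and its docking proteins Irs1 and Irs2. All 10 had enough counts to be tested, among 14068 tested genes. The mice went onto their diets at 4 weeks of age, stayed on them for 6 weeks and were 10 weeks old when sampled. The 12 control mice ate the purified AIN93G diet, the 12 red mice a diet with 10% by weight of red tomato powder, and the 12 tangerine mice a diet with 10% by weight of tangerine tomato powder. Each library is the liver RNA of a separate mouse, and the labels name no transgene or drug. No sequence-level or protein measurement accompanies these transcript counts, and the labels give neither the hour of death nor whether the mice had been fasted.

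Growth hormone from the pituitary binds its receptor on hepatocytes, and the kinase JAK2 then phosphorylates the transcription factor STAT5B. STAT5B switches on Igf1, the circulating growth factor, Igfals, the acid-labile subunit that holds IGF1 in a long-lived ternary complex in blood, and Socs2 and Cish, which shut the receptor off again. In male rodents the hormone arrives in pulses, so the quick feedback targets can rise and fall within hours while circulating IGF1 changes slowly. Insulin, acting through its receptor and the docking proteins IRS1 and IRS2, keeps FOXO1 out of the nucleus. Igfbp1 and Irs2 are FOXO1 targets that fasting raises and feeding lowers.

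The promoters of Cish, Igfals, Igfbp1 and Irs2 are shown because each holds a match to a motif of STAT5 or FOXO, the factors through which growth hormone and insulin reach these genes. Irs1 also has matches, which are given by position only. Each runs from 250 bases before to 50 bases after a transcription start site of RefSeq on GRCm38.p6 and is written 5′ to 3′ on the strand of its gene. Capitals mark matches to TTCNNNGAA, the palindromic STAT5 type motif, and to GTAAACA or CAAAACA, FOXO type motifs searched on both strands, so that TGTTTAC and TGTTTTG are their reverse complements. No match to a motif overlapped a match to another in these promoters.

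Cish, chr9:107296409-107296708, plus strand: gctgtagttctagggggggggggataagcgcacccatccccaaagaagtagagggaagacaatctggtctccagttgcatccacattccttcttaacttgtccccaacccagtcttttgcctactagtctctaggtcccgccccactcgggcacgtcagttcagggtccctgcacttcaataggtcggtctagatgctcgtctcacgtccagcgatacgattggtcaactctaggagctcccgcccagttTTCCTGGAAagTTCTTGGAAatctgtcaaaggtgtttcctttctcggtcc
Igfals, chr17:24877594-24877893, plus strand: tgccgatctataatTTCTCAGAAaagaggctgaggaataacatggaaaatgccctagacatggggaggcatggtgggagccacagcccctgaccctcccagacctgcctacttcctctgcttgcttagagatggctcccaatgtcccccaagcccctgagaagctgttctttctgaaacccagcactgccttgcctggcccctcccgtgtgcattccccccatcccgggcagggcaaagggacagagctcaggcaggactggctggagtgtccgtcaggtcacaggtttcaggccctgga
Igfals, chr17:24877981-24878280, plus strand: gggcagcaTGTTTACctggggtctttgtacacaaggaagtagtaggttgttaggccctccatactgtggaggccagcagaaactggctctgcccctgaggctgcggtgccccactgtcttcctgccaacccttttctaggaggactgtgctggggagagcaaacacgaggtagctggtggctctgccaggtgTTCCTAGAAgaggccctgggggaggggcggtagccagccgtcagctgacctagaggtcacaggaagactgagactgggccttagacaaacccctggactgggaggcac
Igfbp1, chr11:7197537-7197836, plus strand: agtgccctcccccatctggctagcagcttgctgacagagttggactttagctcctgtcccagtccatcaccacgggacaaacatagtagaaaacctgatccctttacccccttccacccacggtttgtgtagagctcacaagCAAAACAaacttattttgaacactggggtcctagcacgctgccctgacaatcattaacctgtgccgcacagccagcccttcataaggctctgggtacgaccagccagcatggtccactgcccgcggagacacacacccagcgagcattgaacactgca
Irs2, chr8:11008880-11009179, minus strand: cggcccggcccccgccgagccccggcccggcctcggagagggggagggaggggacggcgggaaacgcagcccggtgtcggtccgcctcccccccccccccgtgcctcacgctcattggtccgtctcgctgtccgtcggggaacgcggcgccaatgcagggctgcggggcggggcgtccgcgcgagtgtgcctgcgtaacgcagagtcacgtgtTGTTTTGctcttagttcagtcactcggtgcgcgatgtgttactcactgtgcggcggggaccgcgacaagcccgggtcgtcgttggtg

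The Cish promoter held 2 STAT5 type matches that begin at bases 1 and 12 when the start site is counted as base 1. Igfals had 3 start sites in the table, and the promoters of the first and the second each held 1 such match, beginning at bases -236 and -58. The second also held TGTTTAC at base -242. Igfbp1 held CAAAACA at base -108 and Irs2 held TGTTTTG at base -37. The promoter of Irs1 held TGTTTTG at bases -111 and -32. The table had 12 promoters for 8 of the members. Of those 12 promoters, 3 held TTCNNNGAA, 1 held GTAAACA and 3 held CAAAACA, on either strand. They belonged to 2, 1 and 3 of the 8 members. Among all 32851 promoters of the same length, 8.3% held TTCNNNGAA, 3.65% held GTAAACA and 6.28% held CAAAACA. No match was found for Ghr, Igf1 or Igfbp2 in these windows. Socs2 and Insr had no entry.

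By GENCODE release M21 on GRCm38, Ghr (ENSMUSG00000055737) lies at chr15:3317760-3583492 on the minus strand and Igf1 (ENSMUSG00000020053) at chr10:87858265-87937042 on the plus strand. Igfals (ENSMUSG00000046070) spans chr17:24865997-24882010 and Cish (ENSMUSG00000032578) chr9:107296026-107302784, both on the plus strand. The RefSeq start sites used for these last genes fall inside the GENCODE spans. Socs2 (ENSMUSG00000020027) lies at chr10:95385362-95417180 on the minus strand. Igfbp1 (ENSMUSG00000020429) lies at chr11:7197782-7202546 and Igfbp2 (ENSMUSG00000039323) at chr1:72824503-72852474, both on the plus strand. Insr (ENSMUSG00000005534, chr8:3122061-3279617), Irs1 (ENSMUSG00000055980, chr1:82233101-82291416) and Irs2 (ENSMUSG00000038894, chr8:10984681-11008458) are all on the minus strand. The counts cover whole genes, exons and untranslated regions together. The strand setting of the counting is not given in the sources used here, so reads of a gene and of an opposite-strand neighbour cannot be told apart. For Cish, 261 exon bases are shared with the opposite-strand Gm17040, whose counts came to 4.48% of those of Cish, and for Irs2, 162 exon bases are shared with 9530052E02Rik, at 2.45%. The largest overlap is that of Irs1, which shares 2822 of its 9144 exon bases with the opposite-strand Gm9747. Cish also shares 479 with Gm17041. No counts were found for Gm9747 or Gm17041.

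The libraries held between 21290169 and 33810573 counts. All 7 hepatocyte markers were present, with a summed level of 91100 to 135000 CPM (counts scaled to a common library depth) over the 36 livers. Red mouse 186 stood apart with 159 CPM of 5 T cell markers, against at most 4.25 CPM in any other liver, and with 21.7 CPM of 4 skeletal muscle markers. Tangerine mouse 216 had 10.9 CPM of 9 acinar pancreas markers and tangerine mouse 192 had 111 CPM of 5 cholangiocyte markers. Of 6 stellate cell markers, Lrat was listed at 0 in every liver. In whole liver, fewer cells of a type and less RNA per cell cannot be told apart. A clock score, the first principal component of 10 clock genes signed so that a high score means high Dbp, averaged 0.66 ± 2.39 (SD, n = 12) in control, -2.24 ± 1.90 (SD, n = 12) in red and 1.57 ± 1.98 (SD, n = 12) in tangerine livers. It was thus lowest in red livers, while the control and tangerine means lay within 1 SD of each other. The part of the clock in the diet comparisons below was not tested, beyond values with the score as a covariate. In the length slope, the slope in each library of diet-centred log2 CPM on log2 exon length, control mouse 137 stood apart at -0.149, with the next library at -0.064 and the highest at 0.0527.

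Per kilobase of exon, the binding protein Igfbp2 was the most abundant transcript of the axis, at 123 ± 29.0 RPKM (CPM divided by exon kilobases; SD, n = 36). Ghr followed at 74.1 ± 9.16 RPKM, Igf1 at 61.8 ± 10.6 RPKM, Igfbp1 at 46.7 ± 37.1 RPKM and Igfals at 29.5 ± 5.79 RPKM. Insr at 10.1 ± 1.67 RPKM, Irs2 at 3.16 ± 1.07 RPKM and Irs1 at 1.77 ± 0.457 RPKM were lower. The feedback inhibitors Socs2, at 1.02 ± 0.75 RPKM, and Cish, at 0.616 ± 0.681 RPKM, came last. Of the 9 neighbouring pairs in this order, only Igfals with Insr and Insr with Irs2 had levels that did not overlap over the 36 livers. Igf1 exceeded Igfbp1 in 26 of 36 livers and Igfbp1 exceeded Igfals in 22 of 36, so the place of Igfbp1 is not fixed beyond its spread. Ghr exceeded Igf1 in 35 of 36 livers. The exon length is the union of all annotated exons, and the expressed isoforms can be shorter.

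The members differed widely in how much they varied among mice of the same diet. Within diets, Cish had a standard deviation of 1.59 on the log2 CPM scale, Igfbp1 of 1.29 and Socs2 of 1.05, against a median of 0.206 over 10969 expressed genes. These stood at the 100th, 99.9th and 99.8th percentiles of those genes. Irs2 (0.55) stood at the 97th percentile, Igfbp2 (0.368) at the 88.5th and Irs1 (0.348) at the 86.2nd. Igfals, Insr and Igf1, at 0.281, 0.245 and 0.241, were nearer the median, and Ghr, at 0.163, stood at the 29.1st percentile. From the lowest to the highest of the 36 livers, Igfbp1 covered 37.1-fold, Cish 31.4-fold and Socs2 17.8-fold, but Ghr only 1.53-fold.

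**Figure D1:**
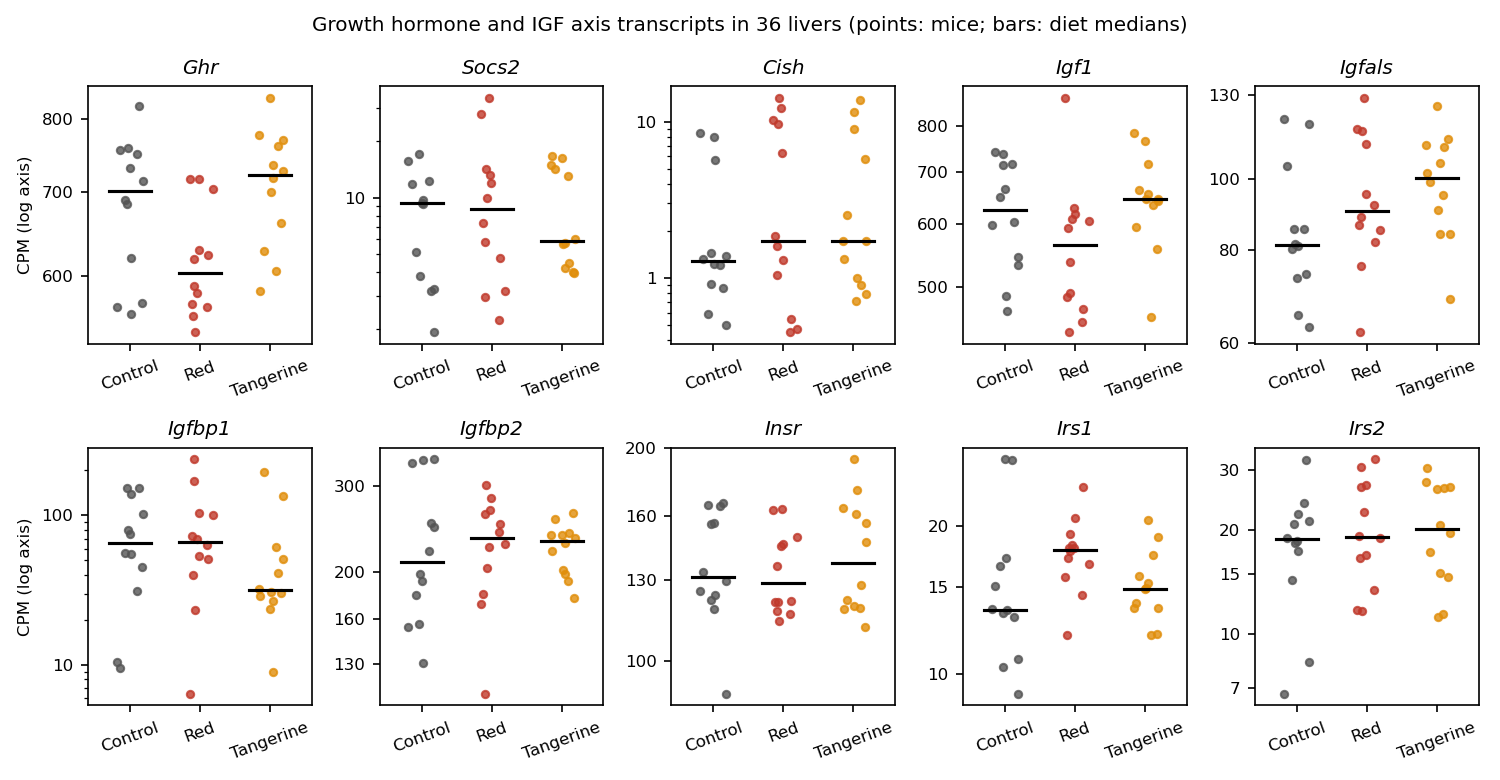
CPM of the 10 transcripts (log axis) in each mouse by diet, with 12 points per diet and the diet median as a bar. Cish falls into a low and a high set in every diet, whereas Ghr spans only 1.53-fold over all 36 livers.

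The question of the diet comparisons is whether tomato powder, of either kind, changed these transcripts. None of the 10 members passed an edgeR adjusted p of 0.05 in red against control, where 0.149% of all tested genes did (0.0498% higher and 0.0995% lower). For tangerine against control the count was again 0 of 10 (0.0142% of all genes). Tangerine against red gave 0 of 10 (1.71% of all genes, with 0.732% higher and 0.981% lower), and both tomato diets against control gave 0 of 10 (0.00711%). At an unadjusted p under 0.05, edgeR gave 1, 0, 1 and 0 members in these comparisons, and the gene was Ghr each time. The shares of all tested genes at that unadjusted level were 13.3%, 5.47%, 15.1% and 6.77%. DESeq2 called 0 members in each comparison, where it called 1.19%, 0.0498%, 2.99% and 0.0853% of all tested genes. Limma-voom with sample weights called Ghr in 2 of them, against 10.7%, 0.0142%, 5.30% and 0.242% of all genes. The median log2 fold change of the members was 0.13, 0.05, -0.01 and 0.04 in that order, and that of all tested genes lay between -0.0118 and -0.00455. The comparisons share control or red livers, so they are not independent of each other.

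**Figure D2:**
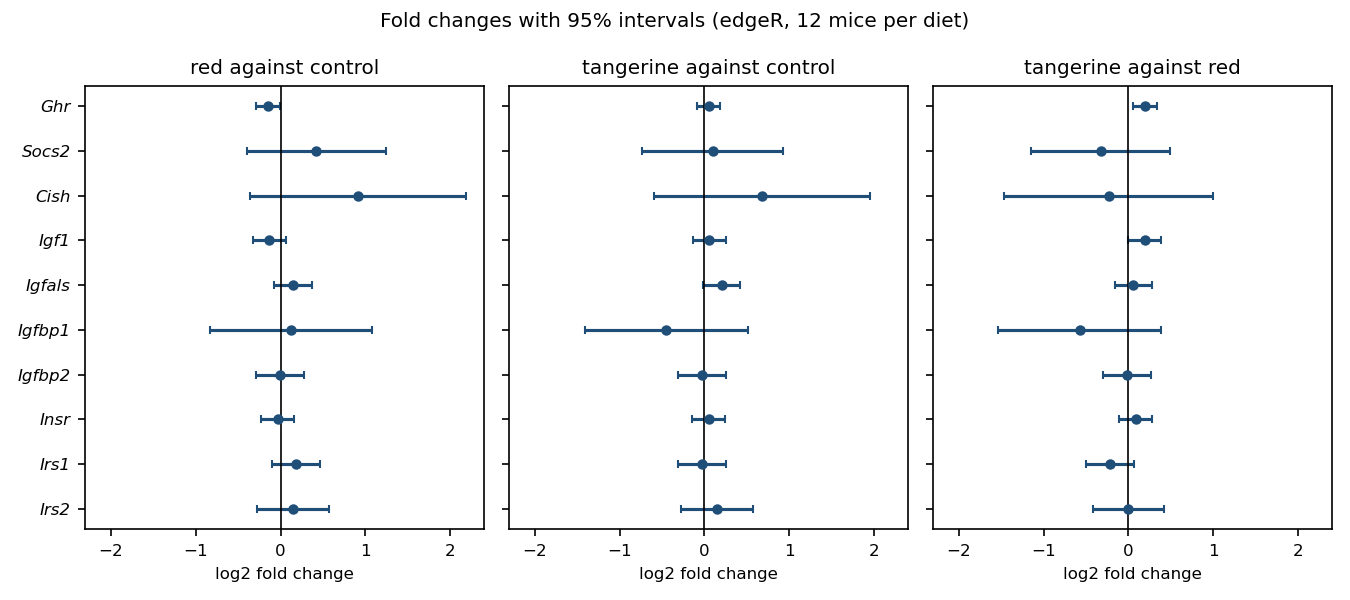
Log2 fold changes of the 10 transcripts (points) with 95% confidence intervals (bars) from the edgeR fit, in 3 comparisons of 12 mice per diet. Only Ghr has intervals that leave out 0, in the left and the right panel, and none of the 30 values passed after adjustment over all genes.

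Ghr encodes the receptor through which growth hormone acts on the hepatocyte. It ranged from 560.5 CPM to 819.5 CPM in control livers, with a median of 702 CPM, from 542 CPM to 717 CPM in red livers, with a median of 604 CPM, and from 584 CPM to 832 CPM in tangerine livers, with a median of 723 CPM. The red livers sat lowest as a group, and all diets overlapped. Of the 12 tangerine livers, 11 lay above the red median and 7 lay above every red liver. Tangerine exceeded red by 0.20 on the log2 scale (SE 0.0676, 95% interval 0.06 to 0.33), with an edgeR adjusted p of 0.132. Red against control gave a log2 fold change of -0.15 (SE 0.0676, interval -0.29 to -0.01; edgeR adjusted p = 0.338), and tangerine against control gave 0.05 (interval -0.09 to 0.18). With limma-voom and sample weights both of the first values passed, at -0.21 for red against control (adjusted p = 0.0257) and 0.21 for tangerine against red (adjusted p = 0.0333), where that tool called 1504 and 746 genes in all. Over all alternatives the adjusted p ran from 0.0257 to 0.677 in red against control and from 0.0333 to 0.578 in tangerine against red. With the clock score as a covariate the values were -0.09 and 0.12, and the part of the clock in them was not tested further. Leaving out any single mouse kept the edgeR adjusted p of tangerine against red at or above 0.0816.

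Socs2, a ubiquitin ligase subunit that removes the activated growth hormone receptor, was low and uneven. It ran from 1.92 CPM to 17.1 CPM in control livers (median 9.34 CPM), from 2.23 CPM to 34.2 CPM in red livers (median 8.68 CPM) and from 3.98 CPM to 16.75 CPM in tangerine livers (median 5.90 CPM). Only 2 red livers, mice 170 and 175, lay above every control liver. Fold changes on the log2 scale were 0.42 (SE 0.406, interval -0.40 to 1.247) in red against control, 0.09 (interval -0.73 to 0.92) in tangerine against control and -0.33 (interval -1.15 to 0.49) in tangerine against red. Much of the red value came with 1 liver, since without red mouse 175 red differed from control by 0.135 and tangerine from red by -0.0404.

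Cish, the other STAT5-driven inhibitor of the receptor, fell into separate sets of livers. In 24 livers it stood between 0.451 CPM and 2.54 CPM (10 to 69 counts), and in 12 livers between 5.70 CPM and 14.2 CPM (145 to 373 counts), with nothing in a gap of 2.21-fold between them. This was the widest gap in the distribution of Cish, taking 24.1% of its log2 range. A wide gap is not particular to Cish, because Igfbp1 had one of 2.22-fold (22.1% of its range, 4 livers below it and 32 above) and that of Insr took 28.4% of its range with 1 liver below. The gap of Cish left 12 or more livers on either side. The high set held 3 of 12 control livers (mice 120, 189 and 208), 5 of 12 red livers (mice 133, 157, 166, 170 and 175) and 4 of 12 tangerine livers (mice 160, 192, 215 and 242). Every diet thus had livers on both sides. The diet medians were 1.28 CPM in control, 1.73 CPM in red and 1.72 CPM in tangerine livers, all within the low set. Control livers ran from 0.500 CPM to 8.51 CPM, red livers from 0.451 CPM to 14.2 CPM and tangerine livers from 0.710 CPM to 13.7 CPM. For Cish the log2 fold change was 0.91 (SE 0.626, interval -0.36 to 2.18) in red against control, 0.68 (SE 0.628, interval -0.59 to 1.95) in tangerine against control and -0.23 (interval -1.47 to 1.002) in tangerine against red. Single livers in the high set moved these values, with tangerine against control at 0.351 without tangerine mouse 160 and 1.006 without control mouse 208, and tangerine against red at 0.0276 without red mouse 133. These intervals are several times wider than those of Ghr, so a change of Cish of the size seen for Ghr was not detectable with 12 mice per diet.

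**Figure D3:**
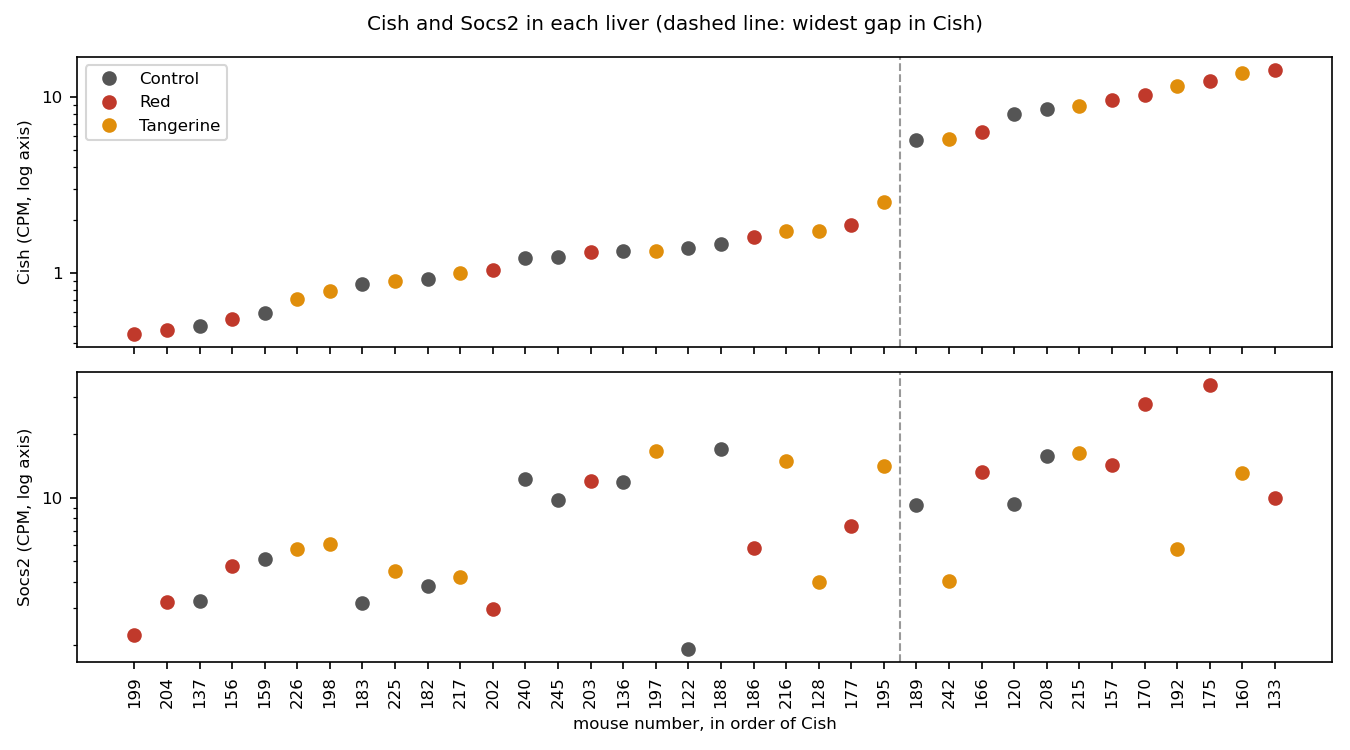
Cish (upper) and Socs2 (lower) in CPM on log axes in each of the 36 livers, ordered by Cish and coloured by diet, with a dashed line at the widest gap in Cish. The 12 livers right of the line hold 3 control, 5 red and 4 tangerine mice, and their Socs2 runs from 4.02 CPM to 34.2 CPM.

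Over all 36 livers, on log2 CPM with diet means subtracted, Socs2 and Cish had r = 0.612 (rho = 0.588, adjusted permutation p = 0.00027 over 6 pairs of members), and r = 0.542 without the 2 farthest livers. This value spans both sets of Cish livers, so it is given as a description. By diet r was 0.518 in control, 0.858 in red and 0.293 in tangerine livers. The relation was then taken within each set, a step added after the data had been seen. Within the 24 low livers, Socs2 rose with Cish (Pearson's r = 0.551, permutation p = 0.00603, adjusted p = 0.0121 over the 2 sets; Spearman's rho = 0.493, permutation p = 0.0155). Without the 2 livers farthest from the median of Socs2, r was 0.503 (permutation p = 0.0181). Within the 12 high livers, r was 0.379 (permutation p = 0.222) and rho was 0.175. Socs2 ran from 1.92 CPM to 17.1 CPM in the low set and from 4.02 CPM to 34.2 CPM in the high set, so that its levels overlapped over most of their range.

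Of the 14 tested genes of growth hormone receptor signalling, 3 were correlated with Cish within the 24 low livers after adjustment over 28 relations, a set of relations chosen after the data had been seen. Of 10968 expressed genes, 0.711% had an r with Cish in these livers at least as far from 0 as the weakest of the 3. Onecut1, a liver transcription factor also known as HNF6, rose with Cish (r = 0.801, rho = 0.77, adjusted permutation p = 0.00028), and r was 0.826 without the 2 farthest livers. Bcl6, a repressor that competes with STAT5 for its sites, was lower where Cish was higher (r = -0.809, rho = -0.798, adjusted permutation p = 0.00028), and r was -0.815 without the 2 farthest livers. Socs3, another member of the inhibitor family, was also negatively related (r = -0.577, rho = -0.57, adjusted permutation p = 0.0273), with r = -0.566 without those livers. Within the 12 high livers the same r values were 0.513 for Onecut1, -0.318 for Bcl6 and -0.109 for Socs3, with adjusted permutation p values of 0.554, 0.676 and 0.891. Across both sets of livers together, r with Cish was 0.819 for Onecut1, -0.728 for Bcl6 and 0.477 for Socs3. The sign for Socs3 was thus opposite to that within the low set. These last values span both sets and are given as a description without a test. Neither Stat5a nor Stat5b passed in either set, with r between -0.282 and 0.201.

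With Onecut1 and Bcl6, Socs2 showed relations of the same sign as Cish over all 36 livers. Among the same 14 genes it rose with Onecut1 (r = 0.711, rho = 0.653, adjusted permutation p = 0.00028) and was lower where Bcl6 was higher (r = -0.434, rho = -0.408, adjusted permutation p = 0.0404). Of 10968 expressed genes, 285 (2.6%) had an r with Socs2 at least as far from 0 as that of Bcl6. Without the 2 farthest livers these r values were 0.728 and -0.451. Its r with Socs3 was 0.213, which did not pass (adjusted permutation p = 0.346).

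Igf1 encodes the hormone that carries the growth signal from liver to body. It ran from 465 CPM to 741 CPM in control livers (median 627 CPM), from 438 CPM to 868 CPM in red livers (median 566 CPM) and from 459 CPM to 783 CPM in tangerine livers (median 646 CPM). Only 2 of 12 red livers lay above the control median, yet the single highest liver of all, mouse 170, was also red. Red livers differed from control livers by -0.13 on the log2 scale (SE 0.0959, interval -0.33 to 0.06; edgeR adjusted p = 0.571), and by -0.206 without red mouse 170. For tangerine the difference was 0.06 (interval -0.14 to 0.25) from control and 0.19 (SE 0.096, interval -0.00185 to 0.39; edgeR adjusted p = 0.335) from red. With the clock score as a covariate the first and the last were -0.05 and 0.08.

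Igfals, the acid-labile subunit, ran from 62.9 CPM to 120.4 CPM in control livers (median 81.4 CPM), from 62.0 CPM to 129 CPM in red livers (median 90.4 CPM) and from 68.7 CPM to 125 CPM in tangerine livers (median 100.3 CPM). Both tomato diets sat somewhat above control, with 10 of 12 red and 11 of 12 tangerine livers over the control median, and the ranges overlapped almost wholly. Against control the log2 fold change was 0.14 (SE 0.11, interval -0.08 to 0.37) in red and 0.20 (SE 0.11, interval -0.02 to 0.42; edgeR adjusted p = 0.936) in tangerine livers. For both tomato diets together it was 0.17 (interval -0.02 to 0.37; edgeR adjusted p = 0.763). Adding the clock score as a covariate gave 0.27 in red (p = 0.0309, edgeR adjusted p = 0.44) and 0.22 in both diets (p = 0.0267, edgeR adjusted p = 0.716), and tangerine against red turned to -0.11.

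Igfbp1, the fast-turning binding protein that fasting induces and insulin represses, was the most scattered of the secreted factors. Control livers ran from 9.58 CPM to 152 CPM (median 65.8 CPM), red livers from 6.40 CPM to 238 CPM (median 66.3 CPM) and tangerine livers from 8.96 CPM to 195 CPM (median 31.5 CPM). The tangerine livers clustered low, and only 2 of 12 exceeded the control median. On the log2 scale Igfbp1 differed by -0.45 (SE 0.473, interval -1.41 to 0.51) in tangerine against control, -0.58 (SE 0.473, interval -1.54 to 0.39; edgeR adjusted p = 0.586) in tangerine against red and 0.13 (SE 0.471, interval -0.83 to 1.08) in red against control. With the clock score as a covariate the last 2 turned, to 0.23 and -0.49. Without red mouse 202 the value in red against control was -0.14, and without red mouse 157 it was -0.02. Tangerine against control was -0.25 with the clock score and -0.824 without tangerine mouse 195. Tangerine against red was -0.95 without that mouse and -0.305 without red mouse 202.

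Igfbp2, the binding protein that marks low growth hormone and insulin action in many settings, had almost the same mean in every diet. It averaged 229 ± 74.9 CPM (SD, n = 12) in control, 227 ± 53.1 CPM (SD, n = 12) in red and 224 ± 26.7 CPM (SD, n = 12) in tangerine livers. The control livers ran from 130.3 CPM to 339.8 CPM (median 209 CPM), the red livers from 113 CPM to 300.5 CPM (median 235 CPM) and the tangerine livers from 177 CPM to 264 CPM (median 232 CPM). The spread was widest in control and narrowest in tangerine livers, a difference in spread that was not tested. The log2 fold changes lay between -0.03 and -0.01, with intervals that reached -0.31 and 0.28.

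Insr, the insulin receptor, ran from 89.9 CPM to 167 CPM in control livers (median 131.5 CPM), from 114 CPM to 164 CPM in red livers (median 129 CPM) and from 112 CPM to 193 CPM in tangerine livers (median 137 CPM). Control mouse 137, which also had the lowest length slope, was lowest. Of the tangerine livers, 2 lay above every control liver, 3 above every red liver and 1 below every red liver, and the diets otherwise overlapped. Its log2 fold change was -0.03 (interval -0.23 to 0.16; -0.08 without control mouse 137) in red against control, 0.05 (interval -0.14 to 0.25) in tangerine against control and 0.08 (interval -0.11 to 0.28) in tangerine against red.

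Irs1, a docking protein that passes the insulin and IGF1 signal to phosphoinositide 3-kinase, ran from 9.11 CPM to 27.4 CPM in control livers (median 13.5 CPM), from 12.0 CPM to 24.1 CPM in red livers (median 17.9 CPM) and from 12.0 CPM to 20.6 CPM in tangerine livers (median 14.9 CPM). Most livers on tomato were above the control median, 11 of 12 red and 10 of 12 tangerine, but the 2 highest livers were controls. Red against control gave a log2 fold change of 0.18 (SE 0.139, interval -0.10 to 0.47), or 0.286 without control mouse 120, and tangerine against red gave -0.21 (SE 0.139, interval -0.50 to 0.07; edgeR adjusted p = 0.479). In tangerine against control it was -0.03 (interval -0.31 to 0.25).

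Irs2, the docking protein that the fasted liver makes more of, ran from 6.73 CPM to 32.0 CPM in control livers (median 18.9 CPM), from 11.7 CPM to 32.2 CPM in red livers (median 19.1 CPM) and from 11.2 CPM to 30.4 CPM in tangerine livers (median 20.2 CPM). The diets shared almost all of this range, and the 2 lowest livers were controls. The log2 fold change was 0.15 in both red against control (interval -0.27 to 0.57) and tangerine against control (interval -0.27 to 0.57). Tangerine against red gave -0.000613 (interval -0.42 to 0.42).

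Whether the members vary together from mouse to mouse was asked of the 9 members other than Cish, in 36 pairs over the 36 livers, with diet means subtracted from log2 CPM. An adjusted permutation p under 0.05 was reached by 5 pairs, 4 of them positive. The share of all pairs of expressed genes that would pass was not counted, here or in the alternatives below. Ghr, Insr and Igf1 formed 3 of these pairs. Ghr with Insr had r = 0.772 (rho = 0.782, adjusted permutation p = 0.00018), Ghr with Igf1 had r = 0.649 (rho = 0.664, adjusted permutation p = 0.00018) and Igf1 with Insr had r = 0.617 (rho = 0.606, adjusted permutation p = 0.00084). Without the 2 farthest livers these were 0.778, 0.62 and 0.586. The unadjusted p of the first pairs, 1e-05, is the smallest that 100000 permutations can give. For Ghr with Igf1, r was 0.667 within control, 0.605 within red and 0.727 within tangerine livers, so the relation had the same sign in each diet. The share of all expressed genes with an r this high was not counted for these members. Genes outside the axis reached higher values, such as Pias2 with Ghr (0.906), Abca6 with Insr (0.928) and Rnf217 with Igf1 (0.805). The pairs are thus not shown to be particular to the axis.

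These 3 genes have long transcripts, and the libraries differed in how their counts leaned with transcript length. The length slope had an r of 0.801 with Insr, 0.506 with Igf1 and 0.497 with Ghr. With that slope also removed, an alternative added after the data had been seen, r was 0.719 for Ghr with Insr, 0.531 for Ghr with Igf1 and 0.41 for Igf1 with Insr. The last of these no longer passed (adjusted permutation p = 0.0512 over the 36 pairs). Of the 36 pairs, 8 passed with the slope removed. Among them Ghr with Igfbp2 went from 0.205 to 0.58 (adjusted permutation p = 0.00162) and Igfbp2 with Insr from -0.0876 to 0.559 (adjusted permutation p = 0.00246). Igfals with Socs2 then had 0.605 and Igfals with Igfbp1 -0.601. Without control mouse 137, also added after the data had been seen, Ghr with Insr had r = 0.753, Ghr with Igf1 0.639 and Igf1 with Insr 0.62, and 6 of the 36 pairs passed. The part of transcript length in what remains was not tested.

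The other positive pair was Igfals with Socs2, both STAT5 targets, with r = 0.505 (rho = 0.543, adjusted permutation p = 0.0132) and 0.481 without the 2 farthest livers. The negative pair was Igfals with Igfbp1, with r = -0.50 (rho = -0.469, adjusted permutation p = 0.0132) and -0.519 without them. Livers with more of the acid-labile subunit transcript had less of the fasting-induced binding protein transcript. For these 2 pairs, too, the share of expressed genes with an r as far from 0 was not counted. Genes outside the axis reached higher positive values, such as Ung with Igfals (0.721) and Wdr45b with Socs2 (0.813). These pairs are likewise not shown to be particular to the axis. Igf1 with Igfbp1 was negative as well but did not pass (r = -0.428, rho = -0.31, adjusted permutation p = 0.0502), and r was -0.251 without the 2 farthest livers. It passed without control mouse 137 (r = -0.44, adjusted permutation p = 0.0489).

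**Figure D4:**
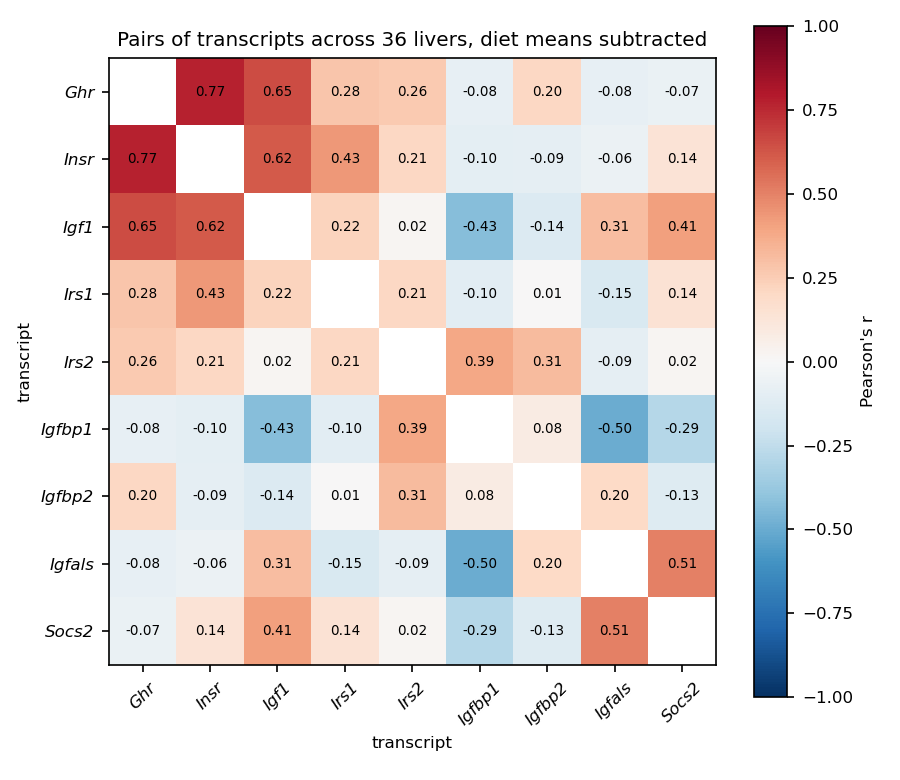
Pearson's r for each pair of 9 transcripts over 36 livers, on log2 CPM with diet means subtracted, from blue (negative) to red (positive). Ghr, Insr and Igf1 form the darkest block, at 0.62 to 0.77, and Igfals with Igfbp1 is the most negative pair, at -0.50.

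A group of 6 pairs had been singled out by their roles, Socs2 with Cish among them, and was adjusted by itself. In it Igf1 with Socs2 had r = 0.413 (rho = 0.443, adjusted permutation p = 0.0238), with r = 0.417 without the 2 farthest livers. Adjusted over the 36 pairs above, neither Igf1 with Socs2 (adjusted permutation p = 0.0535) nor Igfbp1 with Irs2 (adjusted permutation p = 0.0773) passed. For Igf1 with Socs2, r by diet is given next. Within diets it was 0.282 in control, 0.662 in red and 0.101 in tangerine livers. It rested partly on red mice 170 and 202: without the first r was 0.319 (adjusted permutation p = 0.0936), and without the second 0.372 (adjusted permutation p = 0.057). Igfbp1 with Irs2, the FOXO1 targets, had r = 0.388 (adjusted permutation p = 0.029), and r = 0.374 without the 2 farthest livers, but rho was 0.251 (adjusted permutation p = 0.17). Within diets r was 0.40 in control, 0.742 in red and -0.04 in tangerine livers. Leaving out control mouse 183 or 208 or red mouse 133, 170 or 202 ended the call, with r between 0.282 and 0.359. Igf1 with Igfals had r = 0.308 (rho = 0.324, adjusted permutation p = 0.0821). It passed without control mouse 137 (r = 0.381, adjusted permutation p = 0.0289), without red mouse 186 (r = 0.364, adjusted permutation p = 0.0387) and with the length slope removed (r = 0.56, adjusted permutation p = 0.00108). Over the 36 pairs the adjusted permutation p was 0.0962 without control mouse 137 and 0.00246 with the length slope removed. Insr with Irs2 had r = 0.209 (rho = 0.227, adjusted permutation p = 0.22), and 0.446 with the length slope removed (adjusted permutation p = 0.00912).

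Igfbp1 was also set against 14 genes known to be higher in fasting, again a choice made after the data had been seen. It rose with Tat, tyrosine aminotransferase (r = 0.623, rho = 0.68, adjusted permutation p = 0.00084), with G6pc, the glucose-6-phosphatase that releases glucose (r = 0.517, rho = 0.363, adjusted permutation p = 0.00889), and with Pdk4, the kinase that spares pyruvate (r = 0.495, rho = 0.513, adjusted permutation p = 0.00999). Of the expressed genes, 1.29% had an r with Igfbp1 at least as far from 0 as that of Pdk4. Without the 2 farthest livers these r values were 0.579, 0.388 and 0.427. The clock score was not removed from them, and both Igfbp1 and Pdk4 had negative slopes on that score within diets (-0.26 and -0.32). Pck1, the gluconeogenic carboxykinase, had r = 0.334 (adjusted permutation p = 0.163). The other genes of the list did not pass, and Ppara (-0.259), Cpt1a (-0.208) and Creb3l3 (-0.206) had r below 0. Of the 14 genes, 11 had r above 0, with a median of 0.166. The relation was not particular to fasting genes. With 13 genes listed as higher after feeding, Igfbp1 had r above 0 for 10, with a median of 0.205.

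Because the diets differed in clock score, each member was tested for a slope on that score within diets. None of the 10 passed an edgeR adjusted p of 0.05, where 6.34% of all tested genes did (3.48% positive and 2.86% negative), and 3 had an unadjusted p under 0.05, where 19.6% of all genes did. Igfbp1 had the steepest slope, at -0.26 log2 units per unit of score (SE 0.0868, p = 0.00504, edgeR adjusted p = 0.068). It passed when control mouse 183 (adjusted p = 0.0384), red mouse 157 (adjusted p = 0.041), red mouse 186 (adjusted p = 0.0492) or red mouse 204 (adjusted p = 0.0454) was left out of the edgeR fit. Igfals had a slope of 0.04 (edgeR adjusted p = 0.234) and Insr of 0.04 (edgeR adjusted p = 0.247).

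**Figure D5:**
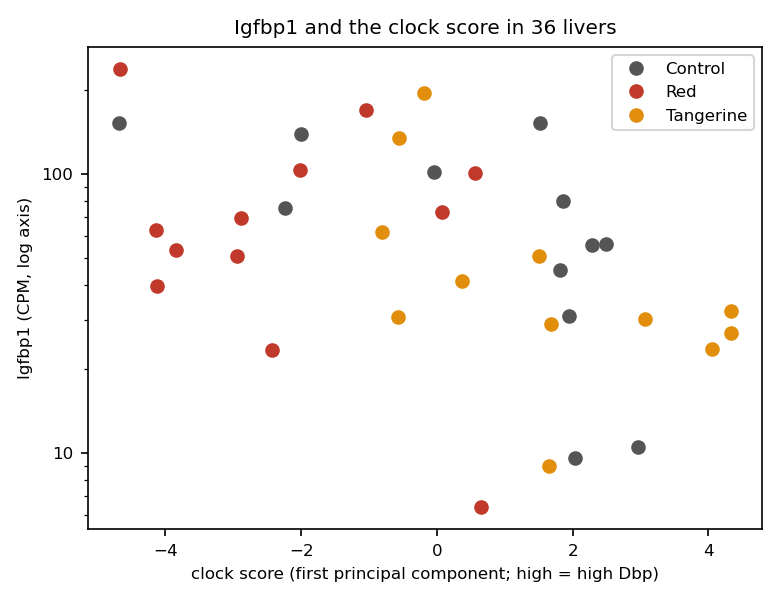
Igfbp1 in CPM (log axis) against the clock score, a unitless first principal component, in each of the 36 livers, coloured by diet. Red livers lie to the left (mean -2.24) and tangerine livers to the right (mean 1.57), and the within-diet slope is -0.26 log2 units per unit of score.

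Around the members, none of the 14 tested genes of growth hormone receptor signalling passed in any of the 4 comparisons. At an unadjusted p under 0.05 edgeR gave 2, 0, 3 and 2 of them, in the order red, tangerine, tangerine against red and both. The nearest were the STAT5 genes. Stat5a averaged 12.0 ± 2.64 CPM in control, 17.0 ± 3.72 CPM in red and 12.6 ± 2.64 CPM in tangerine livers (SD, n = 12 each). Neither the log2 difference of 0.51 between red and control (SE 0.124, edgeR adjusted p = 0.0601) nor that of -0.43 between tangerine and red (SE 0.124, edgeR adjusted p = 0.0645) passed. Stat5b averaged 62.0 ± 8.90 CPM, 73.4 ± 9.16 CPM and 63.8 ± 8.37 CPM, with a log2 fold change of 0.24 in red against control (edgeR adjusted p = 0.143). Both moved with the clock score within diets, with slopes of -0.09 (edgeR adjusted p = 0.00385) and -0.07 (edgeR adjusted p = 4.17e-05) log2 units per unit of score. With the score as a covariate their edgeR adjusted p in red against control was 0.492 and 0.838.

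In the rest of the IGF system 8 of 15 listed genes were tested and none passed, with 2, 0, 3 and 0 at an unadjusted edgeR p under 0.05 in that order. Igfbp4, another binding protein, averaged 1315 ± 217 CPM in control, 1144 ± 163 CPM in red and 1415 ± 185 CPM in tangerine livers (SD, n = 12 each), with a log2 difference of 0.31 between tangerine and red (SE 0.087, edgeR adjusted p = 0.059). It rose with the clock score (slope 0.07, edgeR adjusted p = 0.000175), and with the score as a covariate its adjusted p was 0.943. Fgf21, a fasting hormone that dampens growth hormone action in liver, averaged 4.60 ± 1.497 CPM, 7.85 ± 4.56 CPM and 4.07 ± 2.48 CPM, and its log2 fold change of -0.95 in tangerine against red did not pass (SE 0.296, edgeR adjusted p = 0.0905). Of 29 tested genes of insulin signalling none passed (4, 2, 3 and 3 at an unadjusted edgeR p under 0.05), and their median log2 fold change lay between 0.01 and 0.04 in the 4 comparisons. Foxo3 and Trib3 were nearest in tangerine against red, at 0.41 and 0.65 (edgeR adjusted p = 0.106 and 0.147).

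Of the 13 genes listed as raised by insulin and feeding, none passed against control in either diet. In red against control 12 of them had a log2 fold change below 0, with a median of -0.41, against -0.00474 over all genes. In both tomato diets against control all 13 were below 0, with a median of -0.34, against -0.00916 over all genes. The share of all genes below 0 was not counted, and whether the 13 genes vary independently was not tested. At an unadjusted edgeR p under 0.05 there were 5, 2, 2 and 3 of the 13 in red, tangerine, tangerine against red and both. The only call was Thrsp, a lipogenic regulator, which averaged 1205 ± 424 CPM in control, 594 ± 242 CPM in red and 1227 ± 544 CPM in tangerine livers (SD, n = 12 each). It was higher in tangerine than in red livers, by 1.047 on the log2 scale (SE 0.261, edgeR adjusted p = 0.0287), and 0.732% of all genes were called higher there. With the clock score as a covariate its adjusted p was 0.325. Of 14 genes higher in fasting none passed (3, 2, 5 and 0 at an unadjusted edgeR p under 0.05). Pdk4 came nearest, differing by -1.16 between tangerine and red on the log2 scale (SE 0.328, edgeR adjusted p = 0.059). Pdk4 fell with the clock score within diets (slope -0.32, edgeR adjusted p = 2.01e-06), and with the score as a covariate its adjusted p was 0.916.

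Pulsatile growth hormone sets the sex bias of many liver genes. Of 16 tested male-biased genes none passed in any comparison (2, 1, 2 and 1 at an unadjusted edgeR p under 0.05), and their median log2 fold change was 0.16 in red, 0.15 in tangerine and 0.16 in both diets against control. Elovl3, a fatty acid elongase, averaged 238 ± 205 CPM, 413 ± 161 CPM and 185 ± 105 CPM in control, red and tangerine livers (SD, n = 12 each), with a log2 fold change of -1.16 in tangerine against red (edgeR adjusted p = 0.0657). Elovl3 fell with the clock score within diets (slope -0.31, edgeR adjusted p = 3.3e-06), and with the score as a covariate its adjusted p was 0.878. Of 15 tested female-biased genes, 1 passed (5, 0, 5 and 3 at an unadjusted edgeR p under 0.05), with a median log2 fold change of -0.09 in red, 0.00968 in tangerine and -0.11 in both diets against control and 0.18 in tangerine against red. Ntrk2, a neurotrophin receptor, was lower in red than in control livers (25.5 ± 12.4 CPM against 58.8 ± 19.1 CPM, SD, n = 12 each; log2 fold change -1.21, SE 0.203, edgeR adjusted p = 0.00367) and higher in tangerine than in red livers (log2 fold change 0.94, edgeR adjusted p = 0.0152). Over all genes 0.0995% were called lower in the first comparison and 0.732% higher in the second. With the clock score as a covariate the second call was lost (adjusted p = 0.224). The lists were drawn up with results of these libraries known, so Ntrk2 is no independent sign of a direction for the list.

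Transcripts among those most like each member over the 36 livers, by r of diet-centred log2 CPM among 10968 other genes, were the following. Ghr was most like Pias2 (r = 0.906) and Acbd5 (0.897), and Insr most like Abca6 (0.928), Marf1 (0.925) and Lrp6 (0.917). Igf1 was most like Rnf217 (0.805), Cacul1 (0.803) and Larp4b (0.801). Igfbp1 was most like Irf2bp2 (0.853), Arl4d (0.786) and Ppp1r3g (0.719), the last a glycogen-targeting phosphatase subunit. Igfbp2 was most like Slc2a8 (0.817) and Apoa1 (0.801). For Socs2 they were Wdr45b (0.813), Onecut1 (0.711) and Nrep (0.699). For Igfals they were Ung (0.721), Hagh (0.718) and Ogfod2 (0.698). Cish, across both of its sets, was most like Gm5763 (0.892), Foxa2 (0.875), a liver pioneer factor, and Rgs3 (0.875), values that span both sets. Irs1 reached 0.764 with Mfap3, and Irs2 no more than 0.594 with Sesn2. These are the highest values among many, given as a description without a test.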

How the data were processed

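Liver RNA of 36 mice, 12 per diet, was made into libraries with a directional RNA-seq kit per the labels' protocols. The authors deposited 1 table of raw counts per gene for 53715 identifiers, without normalization. The submitters' processing notes name FastQC, Trimmomatic, edgeR and GRCm38.p6, without versions. The aligner, the counting program, the annotation release and the strand setting are not given in the sources used here. No molecular identifiers are mentioned, so counting precision covers counting error only. Each column was matched to its mouse by the name in that sample's label, and mouse numbers are unique to a mouse.

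Symbols, positions and exon lengths came from GENCODE M21 (53620 identifiers matched, the other 95 holding 0.00177% of counts). Promoters came from a RefSeq table on GRCm38.p6. Low genes were dropped by edgeR 4.0.16 (filterByExpr defaults: count 10, total count 15, share 0.7 beyond 10 libraries), leaving 14068. The test was edgeR's robust quasi-likelihood F test with TMM scaling on all 36 libraries, diet as the only factor, Benjamini-Hochberg adjusted over all tested genes per comparison at 0.05. Standard errors are the absolute log2 fold change divided by the square root of F, and 95% intervals follow from them. CPM values are scaled by TMM, and a prior count of 2 was added for logs. Correlations used 100000 two-sided permutations. The clock score held 68.7% of the variance of 10 of 11 listed clock genes, Per3 being too low to test. The code was checked on simulated data.

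Genes named besides the members were the called genes of each list, up to 3 more with the smallest p per comparison, the 3 genes most like each member among those whose mean log2 CPM reached 1, and partners in the correlations; a few genes that meet these rules are not reported here. The members and lists were chosen with earlier results of these data known. Alternatives were DESeq2 1.42.0 (size factors or test), limma-voom (limma 3.58.1) with sample weights, other count filters, the clock score, the mouse number or up to 5 surrogate variables (sva 3.50.0) as covariates, only the groups compared, and leaving out each library.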

Additional observations from a re-analysis of the deposited data

How the results depend on the processing

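No paired analysis was possible because no mouse number occurs in more than 1 diet. The count of members past the threshold was 0 in each of the 4 comparisons under every alternative run, except limma-voom with sample weights, which gave 1 (Ghr) in red against control and 1 (Ghr) in tangerine against red. The clock slope was called for 1 member, Igfbp1, when red mouse 157, 186 or 204 or control mouse 183 was left out, and for 0 otherwise, with a range of 0 to 1. The adjusted p values behind these counts stand in the report.

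The background of called genes moved more. In red against control the 21 calls became 167 with DESeq2, 1504 with limma-voom, 366 with surrogate variables, 59 at a mean log2 CPM of at least 1 and 4 with the clock score as a covariate. Leaving out 1 library gave 13 to 128, lowest without red mouse 166 and highest without control mouse 189, and over 1.5 times the count without control mouse 120, 137 or 245, red mouse 170, 177, 186 or 204, or tangerine mouse 216 or 226. In tangerine against control the 2 calls became 7 with DESeq2, 63 with surrogate variables, 1 with the mouse number and 2 to 4 without 1 library (4 without tangerine mouse 192). In tangerine against red the 241 calls became 421 with DESeq2, 746 with limma-voom, 819 with surrogate variables, 136 without a filter, 32 with the mouse number and 0 with the clock score. Leaving out 1 library gave 88 to 303, with the lowest values without tangerine mouse 216 (88), 217 (108) or 215 (112) or red mouse 202 (131), and under 157 without tangerine mouse 242 or red mouse 133, 156, 175 or 199. In both diets against control the 1 call became 12 with DESeq2, 34 with limma-voom, 48 with surrogate variables, 6 without a filter and 1 to 7 without 1 library (7 without control mouse 189, 3 without red mouse 177, and 2 without red mouse 170, 186 or 204). The cause of these moves was not tested.

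Of 430 alternative values for the 40 member and comparison combinations, 36 turned direction without a call, 2 were the Ghr calls and the rest kept direction and call. With the clock score as a covariate the turned log2 values were 0.0349 for Cish, -0.11 for Igfals, 0.23 for Igfbp1 and -0.0654 for Insr in tangerine against red, -0.49 for Igfbp1, 0.16 for Igfbp2 and 0.0757 for Insr in red against control, and 0.0474 for Igfbp2 in both diets. With limma-voom they were 0.0142 for Cish and 0.00475 for Socs2 in tangerine against red, 0.18, 0.0717 and 0.13 for Igfbp2 in red, tangerine and both diets, and -0.0176 and -0.069 for Insr in tangerine and both diets. Surrogate variables gave 0.0258 for Cish and -0.000408 for Igfals in tangerine against red, 0.14, 0.00447 and 0.074 for Igfbp2 in red, tangerine and both diets, and 0.0401 for Insr in red against control. The mouse number gave 0.19 for Cish in tangerine against red and -0.00227 for Insr in both diets, and slopes on the clock score of 0.0083 for Cish and -0.00832 for Irs2. Irs2 in tangerine against red, at -0.000613, turned to 0.00159 with DESeq2, 0.00183 with its size factors and 0.00665 without a filter.

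Leaving out 1 library turned the lowest or highest value in these cases. Tangerine against red ran from -0.561 to 0.0276 for Cish, from -0.0844 to 0.0231 for Igfbp2 and from -0.0645 to 0.0755 for Irs2. Red against control ran from -0.14 to 0.27 for Igfbp1 and from -0.0637 to 0.0562 for Igfbp2. Tangerine against control ran from -0.0835 to 0.0366 for Igfbp2, from -0.0186 to 0.23 for Socs2 and from -0.0828 to 0.0722 for Irs1. Both diets against control ran from -0.0736 to 0.0463 for Igfbp2 and from -0.037 to 0.0371 for Insr. Slopes on the clock score ran from -0.0199 to 0.10 for Socs2, from -0.045 to 0.0104 for Irs1, from -0.0102 to 0.0197 for Irs2 and, with the 4 calls named above, from -0.29 to -0.23 for Igfbp1.

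Among the correlations, leaving out 1 library gave r of 0.24 to 0.381 for Igf1 with Igfals, 0.319 to 0.498 for Igf1 with Socs2, 0.282 to 0.462 for Igfbp1 with Irs2, 0.577 to 0.654 for Socs2 with Cish, 0.613 to 0.686 for Ghr with Igf1 and 0.154 to 0.283 for Insr with Irs2. Rank correlation gave 0.251 for Igfbp1 with Irs2, and removing the length slope gave 0.56 for Igf1 with Igfals and 0.446 for Insr with Irs2. Irs2 in red against control was 0.0676 without control mouse 208 and 0.247 without control mouse 183, and Igfals 0.0955 without red mouse 175. Depth limits Cish most, with 10 counts in its lowest library.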
